A study of Mus musculus with 7 samples.

Results

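The kallikreins of the epidermis are a family of secreted serine proteases whose genes lie side by side on mouse chromosome 7. The genes examined were Klk5, Klk6, Klk7, Klk8, Klk9, Klk10, Klk11, Klk12, Klk13 and Klk14, and every probe set that the platform annotation gave to exactly 1 of them was used. Of 45101 probe sets on the array 9 qualified, 1 for each of 9 genes; Klk14 had none and was not analysed here. The samples were 2 mouse basal cell carcinomas, 2 samples of normal newborn (P0) epidermis and the mouse basal cell carcinoma line PDKC1, each on an Affymetrix array. PDKC1 was measured with 1 array at each of 0, 6 and 10 h, where 0 h is the untreated control and the other arrays follow exposure to cyclopamine, an inhibitor of Smoothened, the membrane protein that switches Hedgehog signalling on. The sources used here do not give strain, genotype, the age of the tumour-bearing mice or the dose of cyclopamine. PDKC1 is 1 cell line, and the labels do not say that the 2 arrays of a tissue stem from different mice; the p-values therefore reflect spread among these arrays alone, possibly technical. The epidermis was newborn and the age of the tumours is unknown here, so age and disease cannot be told apart.

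Kallikreins are made as inactive precursors and secreted mainly by keratinocytes of the upper living layers. In the stratum corneum, the dead outer layer of the skin, Klk5 and Klk14 cleave after basic residues and activate other precursors, and Klk7 cleaves after bulky residues. Together they digest the proteins that hold corneocytes to each other, such as corneodesmosin and desmoglein 1, so that the surface cells can be shed. The inhibitor LEKTI, the product of Spink5, restrains them, and its loss gives Netherton syndrome in humans, with excessive shedding.

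Values are signal intensities as deposited, with precision set by how few arrays there are. The median probe set stood at 118.2 and 127.9 in the tumours, at 71.0 and 75.3 in the epidermis and at 72.1 to 78.1 in PDKC1. The ratio of 3' to 5' signal of Actb, a sign of RNA integrity, was 11.3 and 93.1 in the tumours, against 3.98 and 2.84 in the epidermis. In PDKC1, which was labelled from 2 μg of RNA where each tissue array had 100 ng, that ratio was 1.15 to 1.21. The same ratio for Gapdh was 10.6 and 15.4 in the tumours, 5.27 and 4.52 in the epidermis and 0.699 to 0.741 in PDKC1. The basal keratins Krt5 (26658.7 to 35512.7) and Krt14 (7866.2 to 33584.7) were bright on all 7 arrays. Krt15, another basal keratin, was at 957.0 to 1203.4 in PDKC1, against 13433.7 to 30782.5 on the tissue arrays. Of 3 Hedgehog response genes measured, all 3 were called higher in the tumours by limma (adjusted p under 0.05), against 16.2% of all genes. The count was 2 with each array centred on its median. It was also 2 with all 7 arrays in 1 fit, where the PDKC1 arrays were pooled as 1 group. In untreated PDKC1 5 of 13 spinous and granular layer markers were over the array median, among them Sbsn at 3614.8, Krt10 at 776.9 and Lor at 256.0, while others such as Hrnr at 1.8 and Krt1 at 28.3 were under it.

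Expression of the kallikreins was lower in the tumours than in newborn epidermis for 8 of the 9 probe sets. For each of these 8, both tumours lay under both epidermis arrays, which held for 25.0% of all probe sets; both tumours lay over both epidermis arrays for 38.4% of all probe sets and for 0 kallikreins. All 8 passed the test at an adjusted p under 0.05 (limma on log2(intensity + 16), Benjamini-Hochberg over 45037 probe sets), against a background of 9.17% of all probe sets called lower and 18.3% called higher. No kallikrein was called higher. The median log2 difference, tumour minus epidermis, was -2.17 over the 9 kallikreins and 0.19 over all probe sets tested. In bulk samples fewer cells of a type and less RNA per cell cannot be told apart. The Actb ratio given above also differed between the tissues, so RNA integrity and disease cannot be told apart in this contrast.

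**Figure D1:**
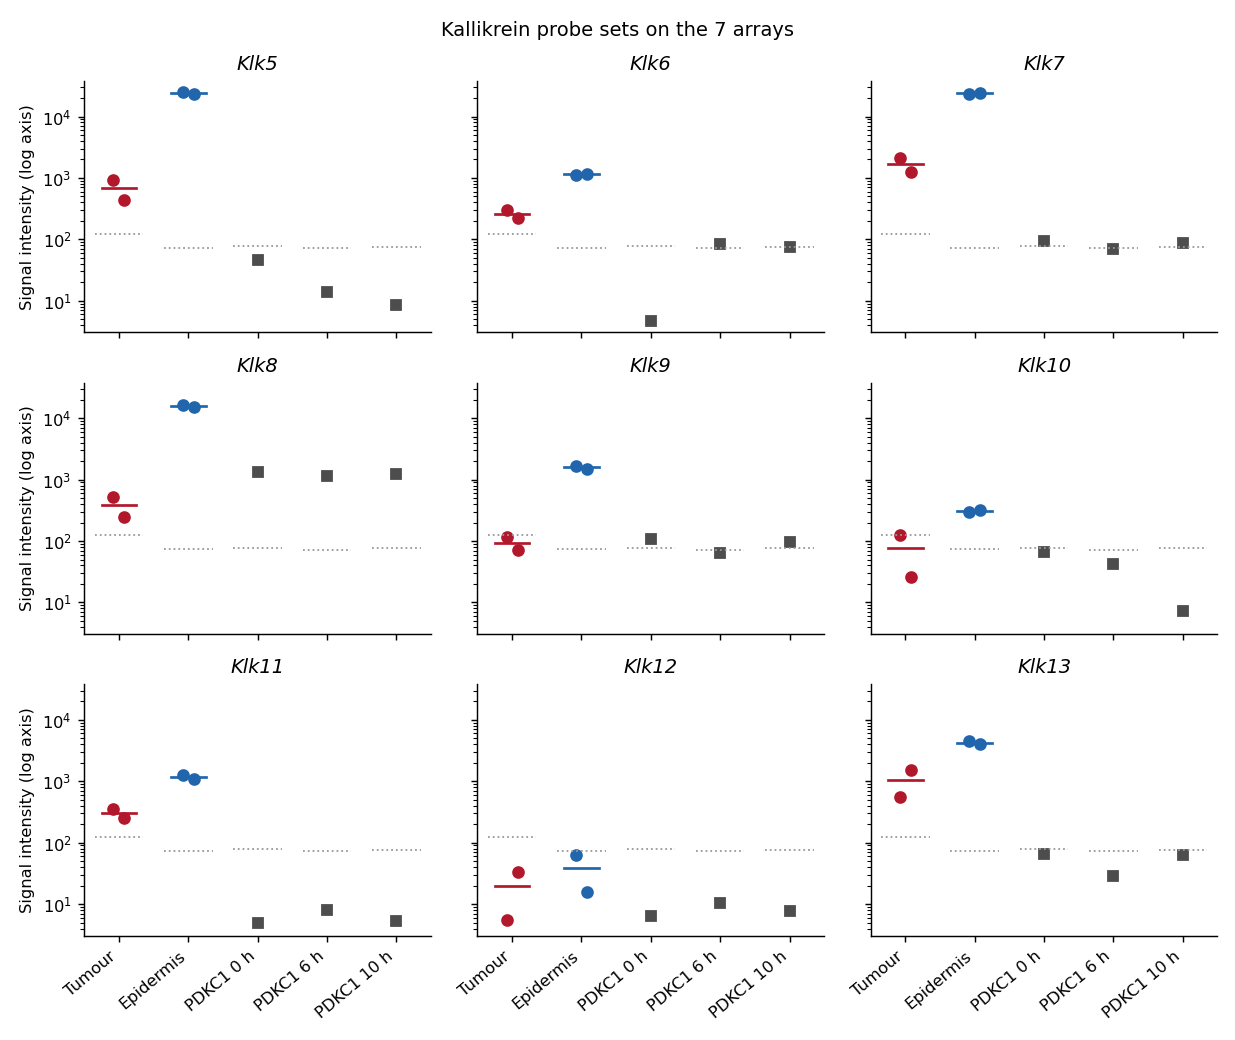
Signal intensity (log axis) of the 9 kallikrein probe sets in tumour, epidermis and PDKC1 at 0, 6 and 10 h; circles are tissue arrays, horizontal bars are means of 2 arrays, squares are single PDKC1 arrays and dotted lines are the median probe set of the arrays. The tumours lie under the epidermis in every panel except Klk12, and in PDKC1 Klk8 alone stays over the dotted line at all 3 times.

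Klk5, the protease that begins the activation cascade, gave intensities of 924.4 and 438.1 in the tumours, against 24650.1 and 23111.4 in the epidermis. The groups lay far apart, with means of 681 ± 344 in tumour and 23881 ± 1088 in epidermis (SD, n = 2 each). The log2 difference was -5.19 ± 0.34 (SE, adjusted p = 0.000373 by limma), and 37 of the 45037 probe sets had a more negative one. Klk7, the chymotrypsin-like protease that cleaves corneodesmosin, had 2088.4 and 1271.3 in the tumours, against 23311.7 and 24338.1 in the epidermis. Its intensity stayed well over the array median in both tumours, yet it differed by -3.86 ± 0.28 on the log2 scale (adjusted p = 0.000418 by limma). Klk8, also named neuropsin, is known from the mouse hippocampus as well as from skin. It had 515.5 and 247.2 in the tumours, against 16099.4 and 15306.2 in the epidermis. Its log2 difference of -5.39 ± 0.34 (adjusted p = 0.000346 by limma) was the most negative of the family, with 24 probe sets of the array under it. Klk9, whose role in skin is little known, had 117.8 and 70.7 in the tumours, both under the array medians, against 1675.1 and 1499.1 in the epidermis. The log2 difference of Klk9 was -3.89 ± 0.32 (adjusted p = 0.000507 by limma).

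The other called members differed by less. Klk6, also named neurosin, a trypsin-like protease best known from the central nervous system, had 298.5 and 222.4 in the tumours, against 1117.8 and 1164.8 in the epidermis (log2 difference -2.08 ± 0.27, adjusted p = 0.00185 by limma). Klk11, a trypsin-like member, had 354.0 and 256.7 in the tumours, against 1255.6 and 1093.6 in the epidermis (-1.90 ± 0.28, adjusted p = 0.00270 by limma). These genes remained over the array median in both tumours. Klk13, another trypsin-like member, had 564.2 and 1537.5 in the tumours, against 4532.3 and 4009.4 in the epidermis (-2.17 ± 0.43, adjusted p = 0.00912 by limma). Klk10, first described as a gene with reduced expression in human breast cancer cells, had 127.0 and 26.3 in the tumours, against 300.7 and 323.9 in the epidermis (-2.08 ± 0.60, adjusted p = 0.0398 by limma). The tumours disagreed most for Klk10, where tumour 1 was just over its array median and tumour 2 far under it. Klk12 was dim everywhere, at 5.5 and 33.5 in the tumours against 62.4 and 15.5 in the epidermis. It was under the array median on all 7 arrays, the groups overlapped, and its difference did not pass the test (-0.61, 95% interval -2.12 to 0.90, adjusted p = 0.554 by limma).

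The 95% intervals of the called members formed no clean groups. Klk5 (-6.00 to -4.39) and Klk8 (-6.18 to -4.60) lay wholly under the intervals of Klk6 (-2.72 to -1.44), Klk10 (-3.49 to -0.66), Klk11 (-2.55 to -1.26) and Klk13 (-3.18 to -1.17). Klk7 (-4.51 to -3.20) and Klk9 (-4.64 to -3.14) stood between; Klk7 overlapped the intervals of Klk5 and Klk10, and Klk9 those of Klk5, Klk8, Klk10 and Klk13. Differences between members were not tested.

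**Figure D2:**
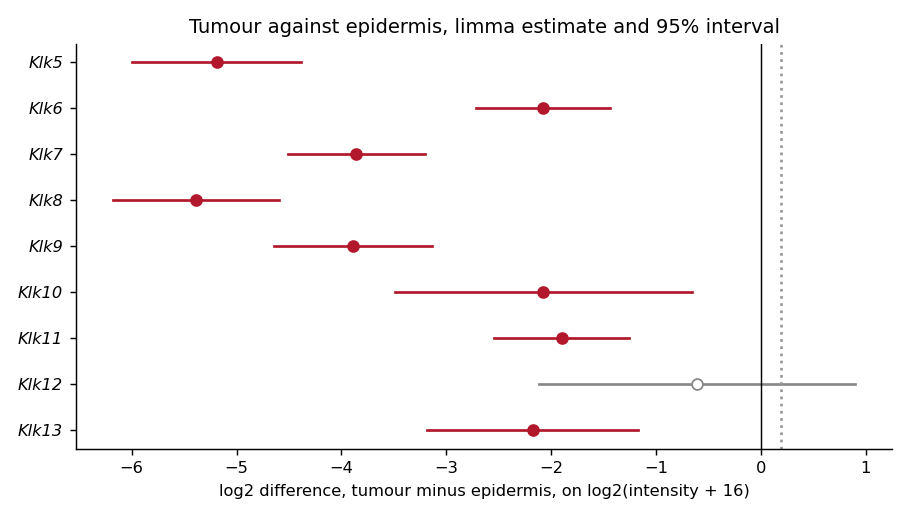
Log2 difference, tumour minus epidermis, on log2(intensity + 16) for the 9 kallikreins, with limma's 95% interval as a line; filled circles passed the test, the open circle did not, and the dotted line is the median of all probe sets (0.19). Klk8 and Klk5 lie furthest left, at -5.39 and -5.19, and the interval of Klk12 spans 0.

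Single arrays decided some of these calls. With an array left out, its tissue has 1 array, assumed to vary like the pair of the other tissue, from which the spread then comes. Without epidermis array 1, 5 kallikreins were called lower, and Klk10 (log2 difference -2.13, adjusted p = 0.172), Klk11 (-1.80, 0.0615) and Klk13 (-2.08, 0.0815) were not. Without epidermis array 2 the calls of Klk10 (-2.03) and Klk13 (-2.26) were lost, while these differences stayed near those with all arrays. Over all single arrays left out, tumours included, the difference ranged from -2.96 to -1.2 for Klk10 and from -2.88 to -1.46 for Klk13. Klk10 was also not called without a variance trend (0.0688). Klk5, Klk6, Klk7, Klk8 and Klk9 were called under all 14 alternatives run, with log2 differences of -5.83 to -4.67, -2.72 to -1.88, -4.50 to -3.50, -6.03 to -4.89 and -4.53 to -3.40 in that order. The share of calls that were lower was 33.4% over all probe sets, 64.3% with each array centred on its median (median of all probe sets -0.45) and 47.3% with quantile normalization (-0.11), while 8 kallikreins were lower and 0 higher with each.

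The tumours were not alike in their kallikreins. Tumour 2 was under tumour 1 for 7 of the 9 probe sets, against 45.0% of all probe sets, and the median log2 difference, tumour 2 minus tumour 1, was -0.63 over the kallikreins and 0.08 over all probe sets. Klk13 went the other way, with a difference of 1.42, as did the dim Klk12 (1.20). Klk10 (-1.76), Klk5 (-1.05) and Klk8 (-1.01) differed most in the common direction. Tumour 2 was also the array with the higher Actb ratio (93.1, against 11.3 in tumour 1). The Gapdh ratios of the tumours were closer, at 15.4 and 10.6 in that order. The part of RNA integrity in the kallikrein difference between the tumours was not tested. Markers of hair shaft and inner root sheath were also higher in tumour 2, with a median log2 difference of 2.97 over 6 genes and a summed intensity of 667.8 in tumour 1 and 7608.9 in tumour 2.

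Keratinocyte markers of the upper layers moved together with the kallikreins. All 7 granular layer markers measured were lower in the tumours (median log2 difference -3.26, tumour minus epidermis), and their summed intensity was 21145.4 and 8726.0 in the tumours, against 97605.5 and 88594.8 in the epidermis. The granular count was 3 without epidermis array 1, 4 without epidermis array 2 and 5 with quantile normalization. Ivl, which encodes the envelope precursor involucrin, had 406.2 and 280.7 in the tumours, against 17192.2 and 19757.9 in the epidermis. Of 6 spinous layer markers 5 were lower (median -1.97), with sums of 81014.9 and 48130.2 in the tumours against 203252.8 and 203548.8 in the epidermis; the spinous count was 1 without epidermis array 1, 2 without epidermis array 2 and 3 with no variance trend. Basal markers gave 1 lower and 0 higher of 7 (median 0.25), with sums of 103443.5 and 72772.7 in the tumours against 98804.3 and 121706.0 in the epidermis; quantile normalization gave 0 lower and 1 higher, centring on the median gave 3 lower, and leaving out single arrays gave 0 to 2 in either direction. Fibroblast markers were higher for 7 of 8 genes, with sums of 65765.5 and 77840.1 in tumour arrays, against 14741.8 and 12036.9 in epidermis arrays. Of 6 skeletal muscle markers 3 were called higher and 0 lower. Their sums were 13266.2 and 2867.9 in the tumours, of which Myh1 gave 6768.2 and 2271.0, against 186.7 and 254.9 in the epidermis. The muscle count was 5 with a replicate block and 1 without probe sets under the 40th percentile of mean level. What part cell makeup had in the kallikrein differences was not tested. Between the tumours the granular median changed by -1.54, tumour 2 minus tumour 1, beside the -0.63 of the kallikreins.

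Proteins that act with the kallikreins were followed in lists of related genes, with 1 probe set per gene; over all genes 12.3% were called lower and 16.2% higher by limma. Of 8 inhibitor genes 4 were lower and 0 higher (median log2 difference -0.82), with 2 lower without epidermis array 1. Spink5, which encodes LEKTI, had 3362.2 and 974.6 in the tumours, against 13022.5 and 12016.3 in the epidermis (-2.78 ± 0.51, adjusted p = 0.00674 by limma, and 0.0572 without epidermis array 1). Serpina12, which encodes vaspin, an inhibitor of Klk7, had 579.5 and 86.1 in the tumours, against 20377.7 and 19388.2 in the epidermis (-6.33 ± 0.70, adjusted p = 0.00102 by limma). The point estimate for Serpina12 was more negative than that of any kallikrein; that difference was not tested. Spint1 (-1.92) and Spint2 (-1.0), inhibitors of membrane serine proteases, were lower as well, but Spint2 lost its call with quantile normalization (adjusted p = 0.126), with no variance trend (0.0878) and when epidermis array 1 (0.197) or 2 (0.186) was left out. Slpi, Wfdc12 and Spink12 were not called, with log2 differences of 0.76, 0.27 and -0.63.

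Of 8 membrane and upstream proteases 3 were lower and 1 was higher (median -0.56), with 1 lower without epidermis array 1. Prss8, which encodes prostasin, a membrane protease needed for the skin barrier, had 571.5 and 259.3 in the tumours, against 4843.0 and 3870.1 in the epidermis (-3.43 ± 0.37, adjusted p = 0.000944 by limma). Tmprss13, a transmembrane protease gene, differed by -1.97 (adjusted p = 0.00245; 0.0531 without epidermis array 1). St14, which encodes matriptase, had 1254.5 and 674.6 in the tumours, against 1784.4 and 1611.4 in the epidermis, and did not pass the test (-0.87, adjusted p = 0.0847). It passed when arrays were centred on their medians (0.0161), with a replicate block (0.0466) and with all 7 arrays in 1 fit (0.0463). That last fit pooled the PDKC1 arrays, untreated and treated, as 1 group, although they are not replicates. Without tumour 1 the log2 difference of St14 was -1.31. The plasminogen activator genes Plau (-1.73, adjusted p = 0.0405) and Plat (1.14, 0.0343) passed in opposite directions, but neither call was stable. Both were lost when either epidermis array was left out (0.0599 to 0.272) and when tumour 1 was left out (Plau 0.0750, Plat 0.0546). With the mean of a gene's probe sets Plau was at -0.66 (0.401) and Plat at 0.92 (0.0721), and Plau was also lost without tumour 2 (0.140). Plat was further lost with no variance trend (0.0982), with quantile normalization (0.88, 0.0982) and with centring (0.50, 0.290).

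Of 8 substrate genes 6 were lower and 0 higher (median -2.07), with 3 lower without epidermis array 1. Cdsn, which encodes corneodesmosin, had 989.1 and 345.3 in the tumours, against 27237.1 and 24110.9 in the epidermis (-5.41 ± 0.44, adjusted p = 0.000490 by limma). The desmosomal cadherin genes Dsc1 (-2.31), Dsg1b (-1.83) and Dsg1a (-1.27), the filaggrin gene Flg (-2.54) and the acid sphingomyelinase gene Smpd1 (-3.68) were lower too. The cadherin calls were lost without epidermis array 1 (adjusted p = 0.0666, 0.0986 and 0.157 in that order), and that of Dsg1a without array 2 (0.0728) or a variance trend (0.0551). Dsg1a and Dsc1 also stand in the spinous list. Il1b, which encodes a cytokine, had 143.7 and 662.2 in the tumours against 114.9 and 105.1 in the epidermis and was not called (1.39, adjusted p = 0.167), although it was without tumour 1 (0.00238). All 6 other proteases of the stratum corneum were lower (median -2.81), among them Casp14 (-4.94), a caspase that processes filaggrin, and Asprv1 (-4.30), an aspartic protease. Blmh, which breaks filaggrin down further, differed by -2.68, and Capn1, a calpain gene with -1.60 (adjusted p = 0.0406), lost its call when the variance trend was dropped (0.0943) and when epidermis array 1 (0.190) or 2 (0.191) was left out.

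**Figure D3:**
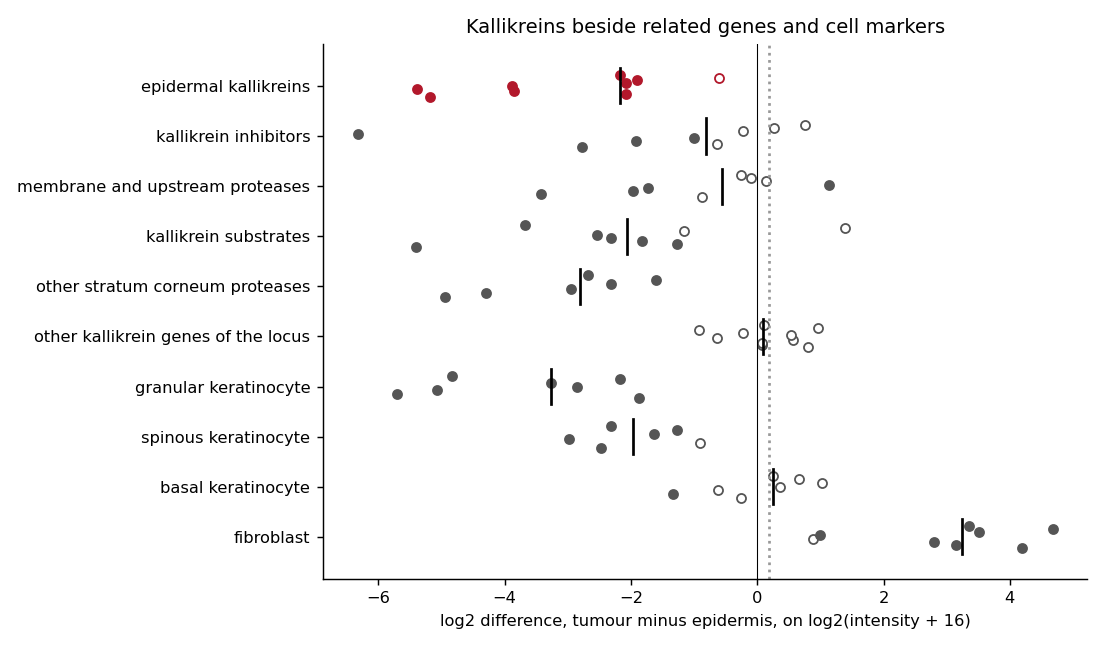
Log2 difference, tumour minus epidermis, on log2(intensity + 16) for each measured gene of the kallikrein family, of lists of related genes and of cell markers; filled circles passed the test, open circles did not, black bars are list medians and the dotted line is the median of all probe sets (0.19). The kallikrein median of -2.17 lies near that of the substrates (-2.07). The other kallikrein genes of the locus centre on 0.09, and 8 of those 10 were under 16 on at least 1 array.

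The order of the genes along chromosome 7 was Klk14, Klk13, Klk12, Klk11, Klk10, Klk9, Klk8, Klk7, Klk6, Klk5, with no other protein-coding gene between them in the RefSeq annotation. The 4 largest differences fell on genes near one end, Klk9, Klk8, Klk7 and Klk5, with Klk6 (-2.08) among them. The next gene beyond Klk5, the enamel protease gene Klk4, was at 1.5 and 11.1 in the tumours, against 6.0 and 3.4 in the epidermis, far under the array medians. It was not called (log2 difference 0.08, adjusted p = 0.910 by limma). Beyond Klk14 lay Ctu1, a tRNA modification gene outside the family, which had 390.3 and 181.5 in the tumours, against 1475.6 and 1183.3 in the epidermis (-2.24 ± 0.38, adjusted p = 0.00478). The next neighbours on that side, Siglece, Ceacam18, Zfp819 and Zfp719, had differences of 0.30, -0.46, -0.02 and -0.50 and were not called. Of 10 other kallikrein genes of the locus measured, limma called 0, but 8 of them were under 16 on at least 1 array. Klk4, Klk1b1, Klk1b5, Klk1b11, Klk1b16, Klk1b24 and Klk1b27 were under the array median on all 7 arrays. For these genes the lack of a call carries little information. At an unadjusted limma p under 0.05, 0 of the 10 were lower and 1 was higher. That gene, Klk1, had 531.8 and 541.4 in the tumours, against 393.7 and 230.8 in the epidermis (0.80, adjusted p = 0.123 by limma). The adjusted p was 0.0410 with all 7 arrays in 1 fit, where the PDKC1 arrays were pooled as 1 group. Near-identical Klk1b relatives of Klk1 can share its signal.

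**Figure D4:**
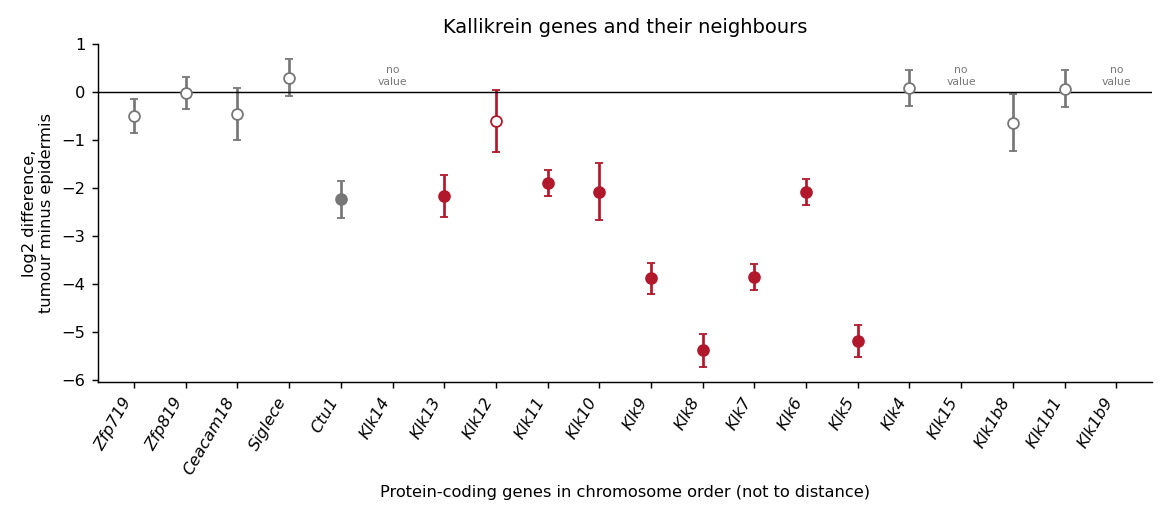
Log2 difference, tumour minus epidermis (circles, with SE as bars), for the kallikreins (red) and 5 protein-coding neighbours on either side (grey), in chromosome order and not to distance; filled circles passed the test. Klk9, Klk8, Klk7 and Klk5 hold the 4 most negative values, Klk4 next to them is at 0.08, and Ctu1 on the far side is at -2.24. Zfp819, Siglece, Klk12, Klk4 and Klk1b1 were under the array median on every array.

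Promoter windows of RefSeq, taken from GRCm38.p6, run from 250 bases before to 50 bases after each annotated start, and 12 windows covered all 10 genes, with 2 each for Klk6 and Klk11. The 250 bases before the start are shown for Klk5 and Klk7, the main pair in shedding, for Klk8, which had the most negative difference and a signal in PDKC1, and for Klk6 at its first start, since it was higher in PDKC1 after cyclopamine. All are on the plus strand, at chr7:43842019-43842268 for Klk5, chr7:43811044-43811293 for Klk7, chr7:43797327-43797576 for Klk8 and chr7:43824294-43824543 for Klk6, and capitals mark letters of a CACCC or GC box.
Klk5: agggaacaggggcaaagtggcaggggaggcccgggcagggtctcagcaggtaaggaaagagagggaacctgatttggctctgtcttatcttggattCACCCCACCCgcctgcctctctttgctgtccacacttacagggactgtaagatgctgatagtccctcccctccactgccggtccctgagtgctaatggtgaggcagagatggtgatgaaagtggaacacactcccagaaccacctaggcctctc
Klk7: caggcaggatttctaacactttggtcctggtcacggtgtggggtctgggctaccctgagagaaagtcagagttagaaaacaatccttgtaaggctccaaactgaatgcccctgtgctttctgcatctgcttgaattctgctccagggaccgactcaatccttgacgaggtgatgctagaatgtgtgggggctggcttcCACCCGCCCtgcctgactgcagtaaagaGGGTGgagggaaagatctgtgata
Klk8: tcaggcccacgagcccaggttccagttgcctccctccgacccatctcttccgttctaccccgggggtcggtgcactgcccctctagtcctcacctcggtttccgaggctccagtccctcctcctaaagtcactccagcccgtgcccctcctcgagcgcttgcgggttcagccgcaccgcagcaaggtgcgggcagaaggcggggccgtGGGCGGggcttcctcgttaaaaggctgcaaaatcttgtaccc
Klk6: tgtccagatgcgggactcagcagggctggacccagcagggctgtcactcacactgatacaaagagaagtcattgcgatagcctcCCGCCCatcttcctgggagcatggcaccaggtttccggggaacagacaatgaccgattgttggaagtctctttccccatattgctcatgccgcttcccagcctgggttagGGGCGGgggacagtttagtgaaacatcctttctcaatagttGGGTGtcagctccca

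Motifs were searched on both strands of the 300-base windows. They were the TATA box TATAAA, the AP-1 site TGANTCA, the grainyhead site AACNGGTT, the GLI site GACCACCCA and the letters TTGCNNCAA. The others were the CACCC box CACCC and the GC box GGGCGG. TTGCNNCAA was searched under the name C/EBP, but it is not the usual form of that site and does not show whether one is present. The letters of the first 5 were in 0 of the 12 kallikrein windows, and in 13.6%, 7.81%, 2.09%, 0.253% and 2.08% of all 32851 windows in that order. CACCC was in 9 of the 12 windows, against 57.5% of all, and was in no window of Klk8. GGGCGG was in 5 of the 12, against 35.7% of all, and in the Klk7 window it overlapped a CACCC. The Klk8 window differed from the rest in composition: it had 23 CG pairs and 65.3% G and C, against 0 to 8 pairs and 52.0% to 58.0% in the other windows of the family. The median over all windows was 7 pairs and 52.7%.

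In untreated PDKC1 cells Klk8 was the member with a clear signal. It stood at 1339.2, against 515.5 and 247.2 in the tumours and against 16099.4 and 15306.2 in the epidermis, so the cell line lay over both tumours and under both epidermis arrays. Klk5 (45.4), Klk6 (4.7), Klk7 (95.7), Klk11 (5.0) and Klk13 (65.7) lay under both tumours, which held for 47.2% of all probe sets. Klk9 (109.6), Klk10 (67.1) and Klk12 (6.4) lay between the tumours. All 9 members were under both epidermis arrays, against 38.2% of all probe sets. With 1 untreated array and another amount of input RNA these differences carry no test.

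After cyclopamine 1 kallikrein probe set changed by at least 2-fold in the same direction at both times, on the scale of intensity + 16 and among probe sets whose brightest PDKC1 array was over its median. Klk6 was at 4.7 at 0 h, 83.4 at 6 h and 74.4 at 10 h, log2 differences from 0 h of 2.26 and 2.13. The background was 1.21% of 25111 probe sets higher and 1.08% lower by the same rule, and with no level filter 2.04% of all probe sets were higher and 3.07% lower. Klk6 passed the level filter only through its 6 h array, and its signal after treatment was close to the array medians, 72.1 at 6 h and 75.7 at 10 h. Because its 0 h value lay under the added 16, its differences were 3.33 and 3.17 with 4 added and 1.10 and 1.01 with 64. There was 1 array per time and no replicate check.

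Klk5 was at 45.4, 13.9 and 8.7 at 0, 6 and 10 h (log2 differences -1.04 and -1.31), under the array median each time, so it did not count. Klk10 was at 67.1, 41.5 and 7.3 (-0.53 and -1.83), also under the median each time. Both of these dim members were lowest at 10 h. Klk8 stayed bright at 1339.2, 1143.2 and 1238.6 (-0.23 and -0.11). Klk7 was at 95.7, 69.2 and 88.6, close to the median. Klk9 (109.6, 62.7 and 97.0) and Klk13 (65.7, 28.7 and 62.8) dipped at 6 h, by -0.67 and -0.87 on the log2 scale, and were near their 0 h values at 10 h. Klk11 and Klk12 did not exceed 10.6 on any PDKC1 array. On the same arrays the Hedgehog target Gli1 was at 841.9, 193.2 and 189.6 at 0, 6 and 10 h. The summed granular markers were at 614.9, 589.0 and 456.9.

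**Figure D5:**
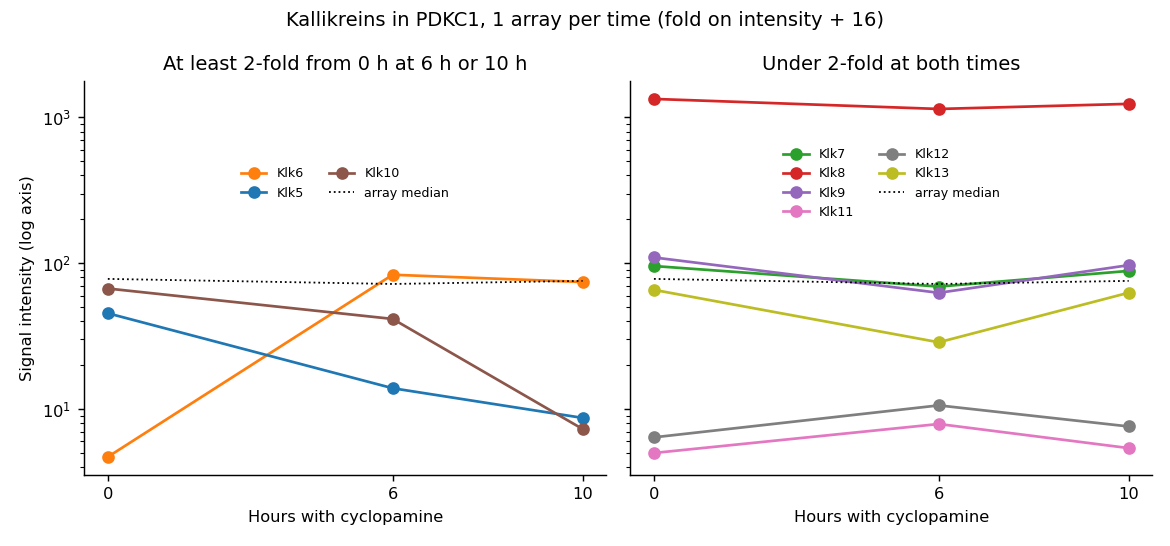
Signal intensity (log axis) of the 9 kallikreins in PDKC1 against hours with cyclopamine, 1 array per time, split by whether intensity + 16 differed at least 2-fold from 0 h at 6 h or 10 h; the dotted line is the array median. Klk6 is at 4.7 at 0 h and at 83.4 at 6 h, Klk5 and Klk10 lie under the median throughout, and Klk8 stays over 1143.

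The genes with the most similar profiles over the 7 arrays were sought for the 8 kallikreins that were over the array median on at least 1 array, among 14048 other genes. Likeness was the root mean square difference of mean-centred log2(intensity + 16) values, a description that uses the tissue contrast and the PDKC1 arrays, so that a shared pattern in either follows from how the genes were chosen. Within the family Klk11 and Klk13 were nearest to each other (0.60 log2 units), then Klk5 and Klk7 (0.73) and Klk8 and Klk9 (0.79), while Klk5 and Klk8 were furthest apart (2.91). The nearest gene to Klk5 was 2310011E23Rik (0.35), followed by Map2 (0.55) and the serpin gene Serpinb7 (0.56). Klk7 was nearest to H60c (0.16), Fmo2 (0.22) and Atp6v1c2 (0.29). The desmosomal cadherin gene Dsg1b was the second nearest to Klk11 (0.22), after Retreg1 (0.19) and before Fgfbp1 (0.23).

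Klk8, which kept its signal in PDKC1, was nearest to Agpat5 (0.23), Igf2 (0.25), which encodes a growth factor, and Pdlim2 (0.42). Agpat5 stood at 2011.1, 2051.5 and 1654.0 in PDKC1 at 0, 6 and 10 h. Klk9 was nearest to Tuba8 (0.19), Tlcd3a (0.25) and Ggh (0.25), and Klk10 to Rnf39 (0.32), Hsd17b14 (0.36) and the interleukin receptor gene Il22ra1 (0.38). Klk13 was nearest to Nfe2l3 (0.35), Kcnk6 (0.41) and Gas7 (0.43). Extl1 was nearest to Klk6 (0.37) and stood at 5.1, 59.7 and 70.9 in PDKC1 at 0, 6 and 10 h. Ppfia3 (0.47) and Hsbp1l1 (0.49) came next to Klk6.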

How the data were processed

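The authors deposited 1 table of linear signal intensity, with a value for each probe set on 7 arrays. Per the labels' protocols, biotinylated cRNA followed Affymetrix's standard procedure, from 100 ng of tissue RNA or 2 μg of PDKC1 RNA; the sources used here do not name the software that summarised the probes. The mean of each array without its lowest and highest 2% was 500.0, which scaling by the authors would give, and no further normalization was applied. No 2 arrays were identical.

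Probe sets were named from the platform annotation; a check by Entrez identifier against RefSeq changed 0 symbols; of 45101, 64 were controls, 932 had several genes and 9160 none. All 45037 others than controls were fitted on log2(intensity + 16) with limma 3.58.1 in R 4.3.3 (lmFit, eBayes with a variance trend; two-sided; Benjamini-Hochberg), with 2 tumour and 2 epidermis arrays and no covariate. In lists of related genes, the probe set with the highest mean stood for its gene. PDKC1 was compared by fold, with no test. The fit was also run on values simulated from its own variance estimates, a check of the code and not of how well it suits these data. The genes named were all 9 kallikreins, list members by call or brightness, and the 3 most similar genes per kallikrein; chromosome neighbours, promoter motifs and markers given by level were chosen after values were seen. The members and lists were chosen with earlier results of these data known. Alternatives, 14 for the tissues and 6 for PDKC1, covered scaling, the added constant, filters, variance trend, replicate block, probe sets per gene and single arrays left out. Of 16 other kallikrein genes 10 were measured, and of 10 substrates 8; the rest were not analysed here.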

Additional observations from a re-analysis of the deposited data

How the results depend on the processing

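The same 8 kallikreins were called lower in tumour than in epidermis, and 0 higher, under 9 of the 10 alternatives that kept every tissue array, the exception being 7 without a variance trend; leaving out 1 tissue array gave 5 to 8. Over all 9 members, Klk12 included, the median log2 difference was -2.17. It was -2.74 with quantile normalization and -2.81 with centring on array medians. Filtering at the 40th percentile of mean level left 8 members, without Klk12, and their median was -3.01. That value covers fewer members, so it is not comparable with -2.17. Leaving out single arrays gave medians over all 9 between -2.96 and -2.13. Over all probe sets 12387 were called in either direction; this became 5282 with 1 probe set per gene and 4570 with the mean of a gene's probe sets, both of which test fewer features, and 4559 to 14924 with single arrays left out, the lowest without epidermis array 1 and 5208 without epidermis array 2. Companion genes called lower numbered 19, and 11 to 19 with single arrays left out. The median of the other kallikrein genes of the locus was 0.09, and -0.55 with centring. With the replicate block 8 kallikreins, 20 companion genes and 12880 probe sets were called. The deviations of tumour 1 and epidermis 1 from their tissue means had a correlation of -0.000903 over all probe sets. No label ties these numbers across tissues, and whether arrays of the same number shared a batch was not tested. Of 9 kallikreins 1 passed the fold rule in PDKC1, and 2 without the level filter, which adds Klk5. Centring subtracts 1 constant per array and so moves all log2 differences alike. With it the median of all probe sets went from 0.19 to -0.45. Apart from centring, filters that drop features and single arrays left out, the cause of these shifts was not tested. Array number, 2 per tissue and 1 per time, limits the precision, and signals under the array median, as for Klk12, carry little information.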
